A study of Rattus norvegicus with 6 samples.

Results

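The Hippo kinases Lats1 and Lats2, the co-activators Yap1 and Wwtr1 (the gene of TAZ), and 6 genes known as YAP and TAZ targets or partners (Ankrd1, Amotl2, Ajuba, F3, Ptpn14 and Nuak2) were followed in rat airway basal cells grown in EpiX or in BEGM. The 10 genes were found by their symbol in the platform annotation, among 15037 genes with a named probe set. Of the 10, 8 had a named probe set, with 1 probe set each, and Yap1 and Ptpn14 had none and were not analysed here. The cells came from tracheal scrapings of wild-type (WT) male rats of the Sprague Dawley strain, at 12 weeks of age. They were kept as 3 lines, each pooled from 3 rats, and each line was divided at isolation between EpiX and BEGM, both media for epithelial cells. RNA was taken on day 8, and each culture gave 1 array, so that there were 3 EpiX arrays and 3 BEGM arrays. The pooled rats and the single harvest limit what each array stands for, and the p-values measure the spread between these cultures only.

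The Hippo pathway passes signals from cell contact, cell shape and tension to the nucleus. When its kinases are active, Lats1 and Lats2 phosphorylate YAP and TAZ, which are then held in the cytoplasm or degraded. When the kinases are quiet, YAP and TAZ enter the nucleus and act with the DNA-binding TEAD factors on genes of growth, adhesion and the extracellular matrix. Several targets, among them Lats2 and the angiomotin family, act back on the pathway as inhibitors. In airway epithelium, YAP is known for its part in keeping basal cells as stem cells. Transcript levels do not report where the YAP and TAZ proteins are or whether they are phosphorylated.

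Values are the authors' deposited log2 signals, and every fold assumes base 2. On the first principal component of all genes, with 69.7% of the variance, the EpiX arrays scored 34.2 to 53.9, BEGM arrays 2 and 3 scored -54.8 and -73.2, and BEGM array 1 scored -7.24 and stood apart, between the media. The basal keratin Krt14 was at 16.75, 16.79 and 17.13 on the EpiX arrays and at 16.85, 16.38 and 16.60 on the BEGM arrays, and the basal cell factor Tp63 was at 14.71, 14.62 and 14.80 in EpiX and 12.93, 12.53 and 12.23 in BEGM. Of the other basal markers, Krt15 was at 16.34, 15.53 and 14.06 in EpiX and 12.15, 11.43 and 9.99 in BEGM, and Ngfr was dim in both, at 5.03 to 5.37 in EpiX and 4.69 to 4.88 in BEGM. Of 6 measured basal markers, 3 rose in EpiX (Krt15, Bcam and Tp63), against 2.63% of all genes called higher. Of the 6, 3 thus moved with the contrast examined here and 3 did not pass. The part of basal markers in the results below was not tested. Krt5 had no named probe set. A gene was called at an adjusted p under 0.05 by limma with Benjamini-Hochberg adjustment over the 15037 genes, and only called genes are said to have risen or fallen.

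Of the 8 measured genes, 3 fell in EpiX (F3, Lats2 and Amotl2), 0 rose and 5 did not pass. Over all genes tested, 5.78% were called, 3.15% lower in EpiX and 2.63% higher. The genes called lower numbered 474 and those called higher 395, and these were 409 and 560 once every array was centred on its median, which shifted the median of all differences to 0.129. The 8 differences ran from -2.64 to 0.21 on the log2 scale with a median of -0.56, and the median over all genes tested was 0.00218. The genes were chosen with earlier results of these data known, so these counts describe them and do not test them as a group. Since each array measured a whole culture, fewer cells of a type and less RNA per cell cannot be told apart.

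**Figure D1:**
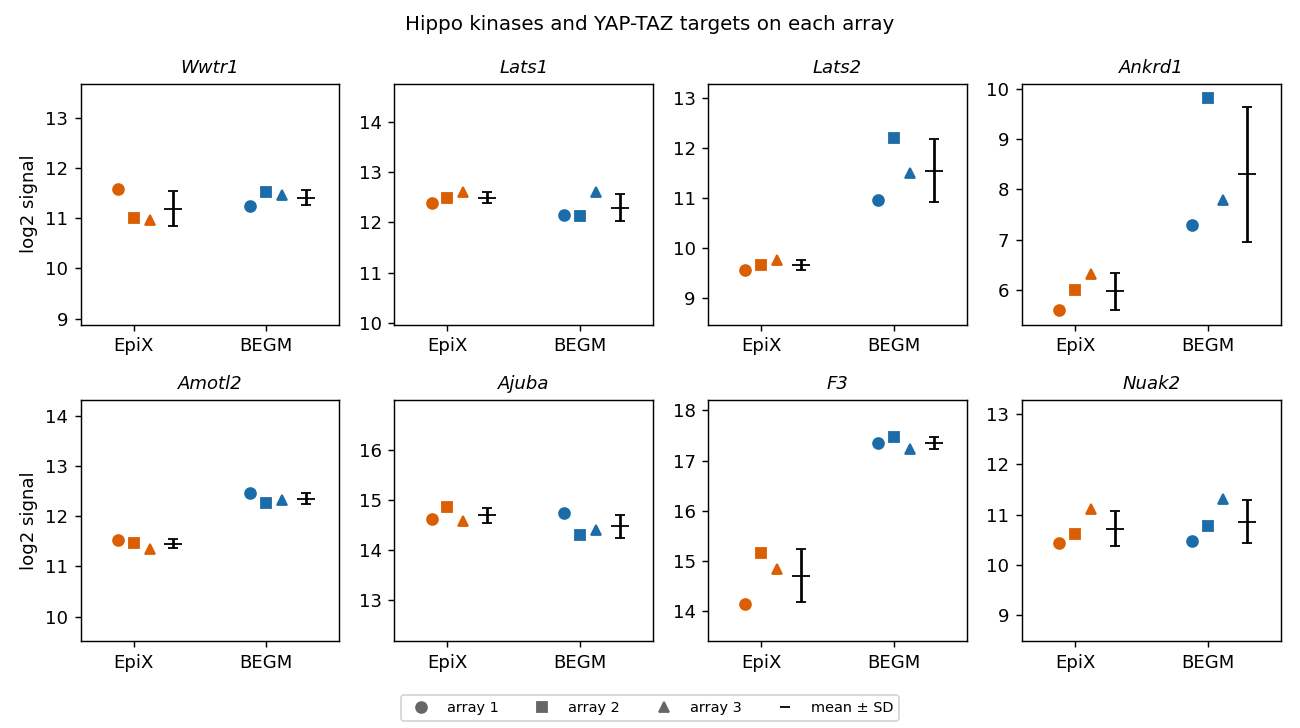
Log2 signal of the 8 measured genes on each EpiX array (orange, left) and BEGM array (blue, right), with the mean and SD in black; each panel spans the same number of log2 units. F3, Lats2, Amotl2 and Ankrd1 lay lower on all 3 EpiX arrays than on any BEGM array, and the other 4 genes overlapped.

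Wwtr1, the gene of the co-activator TAZ, was at 11.59, 10.998 and 10.97 on the EpiX arrays 1, 2 and 3 and at 11.24, 11.52 and 11.46 on the BEGM arrays. The groups overlapped, since EpiX array 1 was the highest of the 6. The difference of EpiX minus BEGM was -0.22 ± 0.21 (SE, n = 3 per medium, limma adjusted p = 0.592) and did not pass. Its 95% interval, -0.71 to 0.27, held differences of both signs.

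The paralogous kinases differed in their values. Lats1, which was at 12.39, 12.48 and 12.61 on the EpiX arrays and at 12.15, 12.12 and 12.60 on the BEGM arrays, overlapped between the media because BEGM array 3 reached the level of EpiX array 3. Its difference was 0.20 ± 0.18 (SE, n = 3 per medium; limma adjusted p = 0.561; 95% interval -0.21 to 0.62). Lats2, a kinase of the same family and also a YAP target that feeds back on the pathway, was at 9.56, 9.66 and 9.76 on the EpiX arrays and at 10.95, 12.19 and 11.50 on the BEGM arrays. All EpiX arrays lay below all BEGM arrays. Lats2 fell by 1.89 ± 0.30 (SE, n = 3 per medium; limma adjusted p = 0.0188; 95% interval -2.60 to -1.18), a 3.70-fold lower signal in EpiX. The 95% intervals of both kinases did not overlap, and the difference between the paralogs was not tested. The spread of Lats2 was 0.0987 (SD) within EpiX and 0.621 within BEGM, where array 1 was lowest and array 2 highest. Without BEGM array 1 the difference was -2.18 (limma adjusted p = 0.00226). The call was lost without any 1 EpiX array (adjusted p = 0.0774, 0.0949 and 0.0577 without array 1, 2 or 3) and without both arrays of number 2 (0.267) or number 3 (0.0955), settings that leave fewer samples for the test. Without both arrays of number 2, 0 of the 15037 genes were called, so the loss there was common to every called gene.

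Among the genes whose proteins bind or restrain the pathway's parts, Amotl2, an angiomotin-like scaffold that binds YAP at cell junctions, fell. It was at 11.53, 11.47 and 11.35 on the EpiX arrays and at 12.47, 12.26 and 12.32 on the BEGM arrays. The arrays of each medium lay close together, with an SD of 0.0906 in EpiX and 0.106 in BEGM, and did not overlap. The difference was -0.90 ± 0.14 (SE, n = 3 per medium; limma adjusted p = 0.0165; 95% interval -1.22 to -0.58), a 1.87-fold lower signal in EpiX. Without BEGM array 1 it was -0.84 (limma adjusted p = 0.0158). The call was lost without EpiX array 1, 2 or 3 (adjusted p = 0.0623, 0.0879 and 0.0556), without BEGM array 2 (0.0568), and also without the pair of arrays numbered 2 (0.283) or 3 (0.0962).

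Ajuba, a LIM-domain protein of cell junctions that binds and inhibits LATS kinases, was at 14.62, 14.87 and 14.58 on the EpiX arrays and at 14.74, 14.30 and 14.39 on the BEGM arrays. BEGM array 1 lay above 2 of the EpiX arrays, and the groups overlapped. The difference was 0.21 ± 0.17 (SE, n = 3 per medium; limma adjusted p = 0.530; 95% interval -0.19 to 0.62). Nuak2, a kinase that acts on actomyosin and is a YAP target, was at 10.44, 10.61 and 11.11 on the EpiX arrays and at 10.48, 10.78 and 11.32 on the BEGM arrays. Its arrays ran over the same range in both media, and the difference was -0.14 ± 0.27 (SE, n = 3 per medium; limma adjusted p = 0.822; 95% interval -0.77 to 0.50). The sign of the Nuak2 difference turned when BEGM array 3 (0.0911) or EpiX array 1 (0.000433) was left out.

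F3 and Ankrd1 are targets with roles outside the pathway. F3, tissue factor, the membrane receptor that starts blood coagulation, was at 14.14, 15.16 and 14.83 on the EpiX arrays and at 17.36, 17.47 and 17.24 on the BEGM arrays. All EpiX arrays lay below all BEGM arrays by at least 2.08. F3 fell by 2.64 ± 0.26 (SE, n = 3 per medium; limma adjusted p = 0.00526; 95% interval -3.26 to -2.02), a 6.24-fold lower signal in EpiX. Here the spread was wider in EpiX (SD 0.522, array 1 lowest) than in BEGM (SD 0.113), although this was not tested. The call held without any 1 array, with a difference of -2.64 (limma adjusted p = 0.00296) without BEGM array 1, and was lost without both arrays of number 2 (adjusted p = 0.170).

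Ankrd1, an ankyrin-repeat protein of the nucleus and the sarcomere and a widely used YAP readout, was at 5.59, 6.001 and 6.31 on the EpiX arrays and at 7.28, 9.82 and 7.78 on the BEGM arrays. The media did not overlap, but BEGM array 2 stood well above the other BEGM arrays (SD 1.34, against 0.362 in EpiX). The difference was -2.33 ± 0.62 (SE, n = 3 per medium) and did not pass (limma adjusted p = 0.0803; 95% interval -3.80 to -0.86). Without BEGM array 1 the difference was -2.83 and passed (limma adjusted p = 0.0190), as it did with array weights (adjusted p = 0.0210) and with the sample number as a block (0.0437). Without BEGM array 2 it was -1.57 (adjusted p = 0.0736). In all, 4 of the 8 genes had EpiX arrays that all lay below the BEGM arrays, and 14.5% of all genes tested did.

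**Figure D2:**
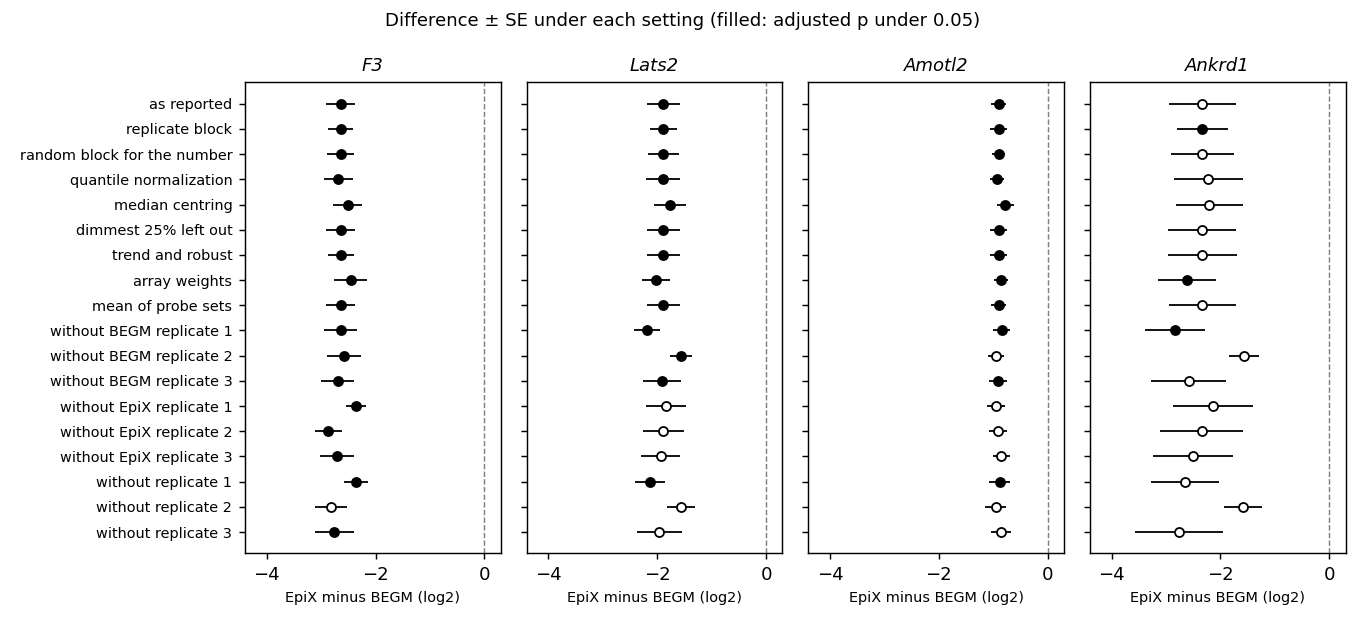
Difference of EpiX minus BEGM (log2) ± SE for F3, Lats2, Amotl2 and Ankrd1 as reported and under 17 other settings; filled points have a limma adjusted p under 0.05. All points lay below 0; F3 kept its call in 16 of the 17, Lats2 in 12 and Amotl2 in 11, and Ankrd1 passed in 3.

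Promoters were read next, because TEAD factors are known to bind the bases GGAATG. RefSeq windows of 300 bases, from 250 before to 50 after a gene's start on the rat build GRCr8, were found for 7 of the 10 genes (Yap1, Wwtr1, Lats1, Amotl2, Ajuba, Ptpn14 and Nuak2). GGAATG was searched on both strands, on which it reads GGAATG or CATTCC. It stood at least once in 5 of the 7 (71.4%), namely Yap1, Amotl2, Ajuba, Ptpn14 and Nuak2, with 1 match each, and in 14.2% of all 33469 windows. Neither Wwtr1 nor Lats1 held it. The motif TGANTCA, which AP-1 factors bind and which often lies near TEAD sites in enhancers, read the same on both strands, stood in 0 of the 7 windows and in 7.33% of all windows. A match is a run of letters and not a measured binding site, and the motif was chosen for its known link to the pathway.

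The windows of 3 measured genes with a match are shown because 1 of them, Amotl2, fell in EpiX, while Ajuba and Nuak2 held the same letters and did not pass the test. Ccn2, the target with the most matches, is shown beside them. Capitals mark each GGAATG or CATTCC, and each window is written 5′ to 3′ on the strand of the gene. The Amotl2 window lies at chr8:112182376-112182675 (plus strand), that of Ajuba at chr15:31999993-32000292 (minus strand), that of Nuak2 at chr13:46305756-46306055 (plus strand) and that of Ccn2 at chr1:22624565-22624864 (minus strand).
Amotl2: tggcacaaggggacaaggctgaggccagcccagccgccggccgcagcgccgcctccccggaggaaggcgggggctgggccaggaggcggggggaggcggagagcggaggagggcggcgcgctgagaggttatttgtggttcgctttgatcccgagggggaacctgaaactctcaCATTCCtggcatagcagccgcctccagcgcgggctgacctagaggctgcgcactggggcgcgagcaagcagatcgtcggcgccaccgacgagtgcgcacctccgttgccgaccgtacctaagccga
Ajuba: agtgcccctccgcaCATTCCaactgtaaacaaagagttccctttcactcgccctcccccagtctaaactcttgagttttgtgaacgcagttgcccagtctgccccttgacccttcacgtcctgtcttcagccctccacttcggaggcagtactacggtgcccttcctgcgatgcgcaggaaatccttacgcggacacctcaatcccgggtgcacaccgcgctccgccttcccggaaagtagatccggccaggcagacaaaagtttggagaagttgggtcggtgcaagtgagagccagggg
Nuak2: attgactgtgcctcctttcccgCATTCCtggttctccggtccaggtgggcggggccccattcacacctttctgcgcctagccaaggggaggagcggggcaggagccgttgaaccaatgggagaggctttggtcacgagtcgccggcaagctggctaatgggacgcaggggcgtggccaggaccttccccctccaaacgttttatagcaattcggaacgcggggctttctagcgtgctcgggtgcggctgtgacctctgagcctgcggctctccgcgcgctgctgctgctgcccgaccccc
Ccn2: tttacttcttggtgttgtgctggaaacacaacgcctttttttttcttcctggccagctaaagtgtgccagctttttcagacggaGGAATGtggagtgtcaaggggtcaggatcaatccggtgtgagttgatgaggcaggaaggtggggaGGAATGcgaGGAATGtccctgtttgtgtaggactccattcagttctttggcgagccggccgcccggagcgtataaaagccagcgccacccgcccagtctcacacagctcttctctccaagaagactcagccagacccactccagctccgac

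The match began at base -76 from the start in Amotl2, at -236 in Ajuba and at -228 in Nuak2. Ccn2 held 3 matches, at -166, -101 and -92, and 0.0956% of all windows held 3 or more. Among 12 other targets with 1 window, 2 held the motif (16.7%, against 14.2% of all windows). These were Ccn1 and Ccn2, and the called targets Axl, Ccdc80 and Tgfb2 did not hold it. Of other pathway genes with 1 window, it stood in 2 of 7 in the kinase cascade and in 2 of 13 upstream regulators. One upstream regulator held 4 matches. The motif also stood in 1 of 4 genes of the STRIPAK phosphatase complex and in 0 of 1 TEAD factors.

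Other genes known as YAP and TAZ targets gave further values of the same kind. Of 16 listed, 11 were measured, of which 5 fell in EpiX, 0 rose and 6 did not pass, with a median difference of -1.37. Over all genes, 3.15% were called lower and 2.63% higher. Ccn2 (connective tissue growth factor), a secreted matricellular protein, was at 13.47, 13.51 and 13.30 on the EpiX arrays and at 16.05, 16.34 and 16.82 on the BEGM arrays. It fell by 2.98 ± 0.21 (SE, n = 3 per medium; limma adjusted p = 0.00195), a 7.88-fold lower signal in EpiX. The related Ccn1, singled out after its values were seen, was at 14.10, 13.90 and 14.18 in EpiX and 15.32, 15.59 and 15.98 in BEGM, and fell by 1.57 ± 0.20 (SE; limma adjusted p = 0.00978). The matricellular pair therefore lay lower on every EpiX array, like F3 and Lats2.

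Tgfb2, a ligand of the TGF-beta family, was at 9.40, 9.78 and 9.57 on the EpiX arrays and 12.52, 13.08 and 12.26 on the BEGM arrays (difference -3.04). Ccdc80, a secreted matrix-binding protein, was at 7.08, 8.06 and 8.61 in EpiX and 10.21, 11.74 and 12.14 in BEGM (difference -3.45 ± 0.57, SE; limma adjusted p = 0.0211). Axl, a receptor tyrosine kinase, was at 11.72, 11.99 and 11.86 in EpiX and 13.19, 14.03 and 15.33 in BEGM (difference -2.32 ± 0.49, SE; limma adjusted p = 0.0434). Among the BEGM arrays, array 1 was lowest and array 3 highest for both Axl and Ccdc80.

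The call of Ccn2 or Tgfb2 was lost without both arrays of number 2 (adjusted p = 0.170 and 0.145), where no gene was called, and in no other setting run. The calls of Ccn1, Ccdc80 and Axl were also lost without BEGM array 2 (adjusted p = 0.0515, 0.0980 and 0.142) and without EpiX array 1 (0.0531, 0.0731 and 0.141) or array 2 (0.0666, 0.0974 and 0.152). Axl lost its call without EpiX array 3 too (0.107). Without both arrays of number 2 these adjusted p-values were 0.272, 0.360 and 0.423, and without both of number 3 they were 0.0607 for Ccdc80 and 0.0677 for Axl. Without BEGM array 1, the differences were -3.15 for Ccn2, -1.72 for Ccn1, -3.09 for Tgfb2, -4.03 for Ccdc80 and -2.82 for Axl, and 6 of the 11 were called.

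Not every target followed. Igfbp3, which binds insulin-like growth factors, was at 8.96, 7.87 and 7.71 on the EpiX arrays and at 6.81, 6.78 and 7.20 on the BEGM arrays, a difference of 1.25 ± 0.34 (SE; limma adjusted p = 0.0831) in the other direction. Crim1 differed by -1.37 ± 0.57 (SE; adjusted p = 0.214) and was called lower without BEGM array 1 (adjusted p = 0.0142) or both arrays of number 1 (0.0453). Fjx1, Asap1, Nt5e and Gadd45a differed by -0.28, -0.11, 0.13 and 0.41, each with a 95% interval that held 0, and the sign of the first 3 turned in some settings. Nt5e was among the dimmest 25% of genes, at 4.05 to 4.56 in EpiX and 3.91 to 4.35 in BEGM, so its value says little about a response.

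**Figure D3:**
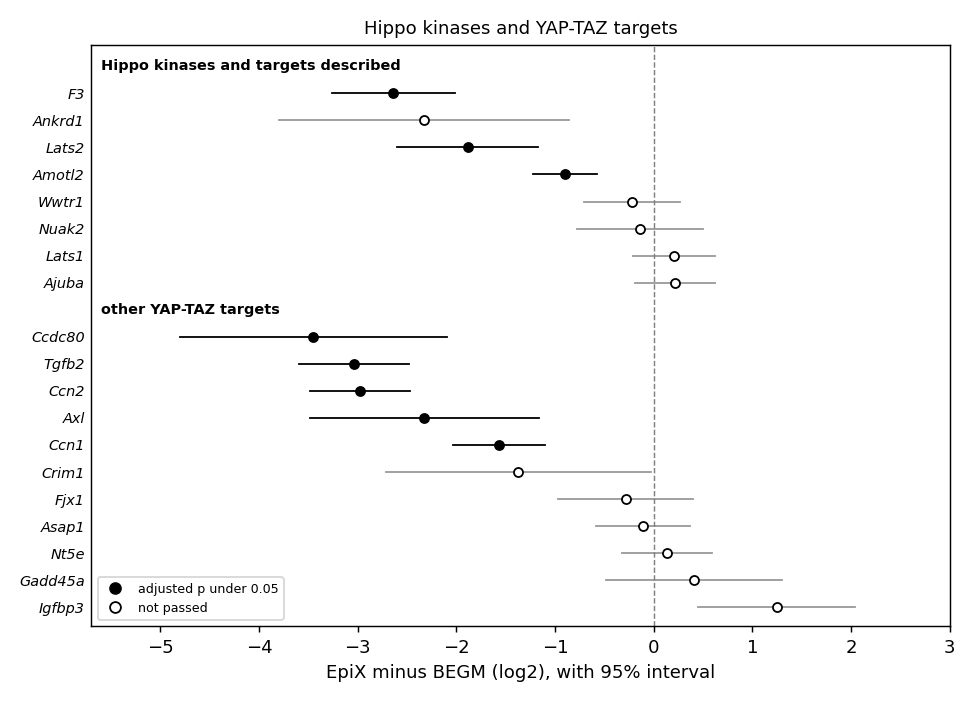
Difference of EpiX minus BEGM (log2) with its 95% interval for the 8 measured Hippo kinases and targets and for 11 other YAP-TAZ targets; filled points passed the limma test. The filled points lay at -3.45 to -0.90, and no point above 0 was filled.

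Other genes of the pathway were measured for comparison, 27 of 38 listed. Of these, 1 rose, 2 fell and 24 did not pass, with a median difference of -0.02, so that the share called was 3 of 27 against 5.78% of all genes. Of the upstream kinase cascade, 0 of 9 measured genes were called by limma. Its largest differences were those of Stk3, a kinase that activates LATS (0.65 ± 0.29, SE; adjusted p = 0.249), and Taok3 (-0.40 ± 0.30, SE; adjusted p = 0.499). Of the STRIPAK phosphatase complex, 0 of 4 were called, with differences between -0.11 and 0.12.

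Among 10 measured upstream regulators, Nf2 rose and Wwc2 fell. Nf2 encodes merlin, a membrane scaffold that helps activate LATS, and was at 11.82, 11.85 and 11.54 on the EpiX arrays and at 11.10, 10.37 and 10.67 on the BEGM arrays (difference 1.02 ± 0.22, SE, n = 3 per medium; limma adjusted p = 0.0434). Wwc2, a relative of the scaffold KIBRA, was at 8.16, 7.95 and 7.78 in EpiX and at 8.70, 9.12 and 9.38 in BEGM (difference -1.11 ± 0.21, SE; limma adjusted p = 0.0315). The media did not overlap for either gene. Each call was lost when any 1 array other than BEGM array 1 was left out, with adjusted p from 0.0743 to 0.175 for Nf2 and from 0.0702 to 0.138 for Wwc2. Both were also lost without both arrays of number 2 (0.424 and 0.416) or number 3 (0.137 and 0.142).

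Of the TEAD factors, which carry YAP and TAZ to DNA, Tead2 fell. It was at 7.49, 8.09 and 8.05 on the EpiX arrays and at 9.25, 10.04 and 9.89 on the BEGM arrays, a difference of -1.85 ± 0.27 (SE, n = 3 per medium; limma adjusted p = 0.0139) and a 3.60-fold lower signal in EpiX. Its call was lost without BEGM array 2 (adjusted p = 0.0707), EpiX array 1 (0.0561) or array 2 (0.0674), and without both arrays of number 2 (0.272) or number 3 (0.0732). Tead1 was at 11.99, 12.17 and 12.75 in EpiX and 12.68, 13.20 and 13.12 in BEGM and did not pass (difference -0.69 ± 0.25, SE; limma adjusted p = 0.156; 0.0430 with array weights). Tead3 differed by -0.02 ± 0.17 (SE; adjusted p = 0.974), and by 0.11 with median centring. Vgll4, which competes with YAP for TEAD, was at 11.74, 11.51 and 11.03 in EpiX and 10.78, 10.62 and 10.18 in BEGM, a difference of 0.90 ± 0.24 (SE) that did not pass (limma adjusted p = 0.0816) but did without BEGM array 1 (0.0434), with array weights (0.0250) and with the sample number as a block (0.0254).

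**Figure D4:**
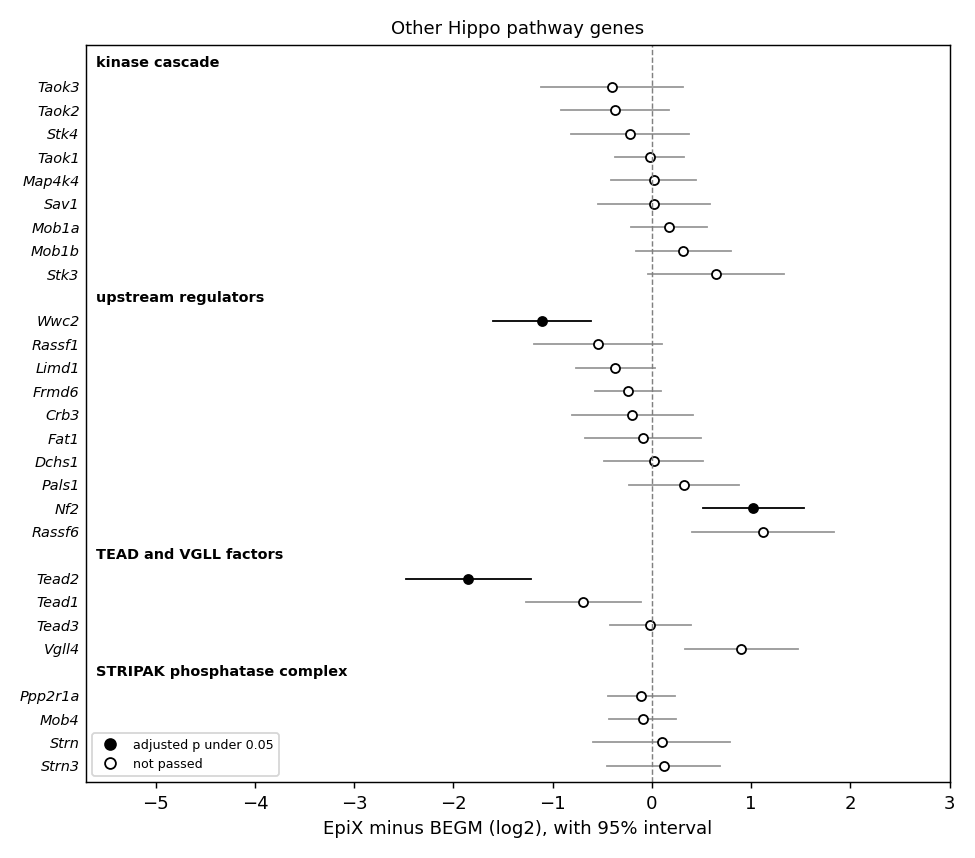
Difference of EpiX minus BEGM (log2) with its 95% interval for 27 other Hippo pathway genes in 4 groups by role; filled points passed the limma test. The 3 filled points are Tead2 and Wwc2, lower in EpiX, and Nf2, higher.

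Markers of other cells were followed beside these genes. Of 15 measured fibroblast markers, 1 fell (Vim), 0 rose and 14 did not pass, against 5.78% called over all genes. For 9 of the 15, all EpiX arrays lay below all BEGM arrays, as for 14.5% of all genes tested. Vim was at 6.68, 7.96 and 11.68 in EpiX and 14.08, 15.83 and 17.18 in BEGM. Its difference was -6.92 (limma adjusted p = 0.0321). All 15 differences were negative, and the mean level of the list was 5.53 to 6.20 on the EpiX arrays and 6.77 to 9.56 on the BEGM arrays, highest on BEGM array 3. The number of fibroblast markers that fell was 7 without BEGM array 1 and 0 to 3 without any other array or number, Vim losing its call without BEGM array 2 (adjusted p = 0.133) or 3 (0.0791), EpiX array 1 (0.0993) or 2 (0.144), and both arrays of number 2 (0.424). Col1a1, a defining fibroblast collagen, was at 5.82, 5.14 and 5.56 on the EpiX arrays and at 7.44, 8.32 and 12.34 on the BEGM arrays. Among the BEGM arrays, F3, Lats2, Ankrd1 and Tgfb2 were highest on array 2, Amotl2 on array 1, and Ccn1, Ccn2, Axl, Ccdc80 and Crim1 on array 3. The fibroblast list was also higher on BEGM arrays 1 and 2 (6.77 and 7.49) than on any EpiX array, and the part of fibroblast transcripts in the results above was not tested. Without BEGM array 3 the differences were -2.70 for F3 (limma adjusted p = 0.0131), -1.91 for Lats2 (0.0445), -0.91 for Amotl2 (0.0410) and -2.77 for Ccn2 (0.00415). For Axl the difference without that array was -1.75 (adjusted p = 0.0265) and for Ccdc80 it was -3.06 (0.0465). Crim1 (-0.77, adjusted p = 0.369) and Ankrd1 (-2.585, 0.115) did not pass without it, as with all arrays. That setting keeps BEGM arrays 1 and 2, where the fibroblast list was also higher, so it does not separate out fibroblast transcripts.

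Of 8 measured smooth muscle markers, 4 fell and 0 rose, against 3.15% of all genes called lower. Those that fell were Cnn1, Tagln, Acta2 and Lmod1, with differences of -7.00, -6.97, -2.91 and -0.93. The number that fell was 0 without both arrays of number 2 and 2 to 4 in every other setting that left arrays out. The list's mean level was 5.84 to 6.19 on the EpiX arrays and 7.96 to 8.62 on the BEGM arrays. Its defining myosin Myh11 was low in both media, at 4.25, 4.34 and 4.13 on the EpiX arrays and 4.14, 4.66 and 4.21 on the BEGM arrays, and Des likewise ranged from 4.09 to 4.25 in EpiX and from 4.24 to 4.86 in BEGM. By limma 0 of 9 leukocyte and 0 of 9 endothelial markers were called, against 5.78% of all genes. Among the leukocyte markers, the largest differences were those of Cd68 (1.04, adjusted p = 0.40) and Cd14 (0.49, adjusted p = 0.316). Cd68 was at 11.36, 11.08 and 9.17 on the EpiX arrays and 8.65, 9.62 and 10.22 on the BEGM arrays. Cd14 was at 12.00, 11.81 and 11.71 in EpiX and 11.90, 11.20 and 10.95 in BEGM. Both were well above the dimmest 25% of genes, whose limit was 4.5, while the pan-leukocyte gene Ptprc was below it on all 6 arrays. Of the endothelial markers, Esam differed by -1.51 (limma adjusted p = 0.0685) and Tek by -0.90 (0.209). Without BEGM array 1, Cd14 was called higher (0.77; limma adjusted p = 0.0338) and Esam lower (-1.89; 0.00775) in EpiX, and Esam was also called with array weights (0.0151) and without both arrays of number 1 (0.0192). The mean level of the leukocyte list was 5.51 to 5.73 in EpiX and 5.44 to 5.51 in BEGM, and that of the endothelial list was 4.46 to 4.65 in EpiX and 4.83 to 4.99 in BEGM.

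**Figure D5:**
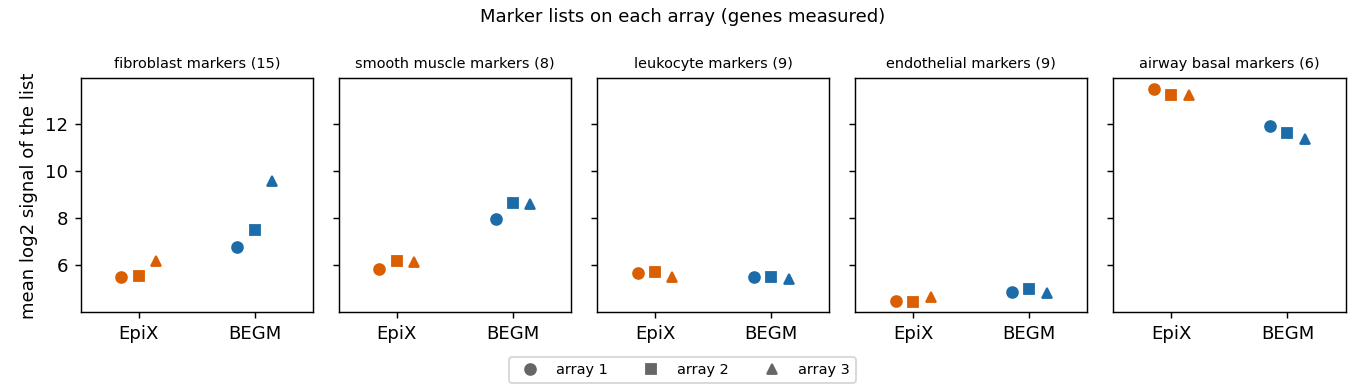
Mean log2 signal of 5 marker lists on each EpiX array (orange, left) and BEGM array (blue, right); the number of measured genes is in brackets. The fibroblast list spread from 6.77 to 9.56 over the BEGM arrays, while the smooth muscle list lay at 7.96 to 8.62 there.

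Genes with the profile most like each called gene were found by the root mean square distance between their 6 array values, each centred on the gene's own mean. Predicted and unnamed loci were passed over. Nearest to F3 were Ablim3, an actin-binding LIM protein, at a distance of 0.205 log2 units, and Ttyh3 at 0.257. Nearest to Lats2 were Klhl29 at 0.0839 and Tmem184b at 0.159, which like Lats2 were lowest on BEGM array 1 among the BEGM arrays and highest on array 2. Klhl29 was dim on the EpiX arrays, at 3.82 to 4.04, below the limit of 4.5 for the dimmest 25% of genes. Nearest to Amotl2 were Aass, an enzyme of lysine breakdown, at 0.0764 and Lipt1, a lipoyltransferase, at 0.0813. The likeness rests on the same 6 arrays and mostly on the step between the media.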

How the data were processed

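Biotin-labelled RNA of 6 cultures was measured on Affymetrix arrays, per the labels' protocols. The authors deposited log2 signals of 24834 probe sets on each array. The Transcriptome Analysis Console is named in the submitters' processing notes; its version, role, the normalization and the build are not given in these sources. The log2 unit was read from the values (2.62 to 18.66), and scanner files were not used here.

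Of the probe sets, 15049 had 1 symbol in the platform annotation, which can be old. The brightest was kept per gene, which left 15037 genes. The medium was the single term of a linear model in limma 3.58.1 (lmFit, eBayes; statmod 1.5.0, R 4.3.3, plots by matplotlib 3.10.9), 2-sided, with no filter on dim genes. The fit was tested on simulated data with 200 changed genes. It called 32 of 67 genes changed by 1 log2 unit, 53 of 67 changed by 2 and 61 of 66 changed by 4. There were 8 false calls. The number of arrays limits the precision.

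The members, gene lists and tests were chosen with earlier results of these data known. Of each other list, up to 4 called genes with the largest differences were named, or the 2 largest where none was called. For each called member the 2 genes nearest in profile were named, with predicted and unnamed loci passed over. Krt14, Tp63, Col1a1 and Ptprc were always named. Names beyond this rule (Ccn1, Ngfr, Igfbp3, Crim1, Fjx1, Asap1, Nt5e, Gadd45a, Tead1, Tead3, Vgll4, Myh11, Des) were chosen after their values were seen. Other lists held ciliated, secretory and mitosis genes. Promoters were read from RefSeq windows of GRCr8. Alternatives were a fixed or random block for the sample number, 2 other normalizations, a filter on dim genes, another variance model, array weights, the mean of probe sets, and leaving out arrays.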

Additional observations from a re-analysis of the deposited data

How the results depend on the processing

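Over all genes, 869 were called as reported, 1987 with array weights and between 0 and 2089 when 1 array or both arrays of a number were left out. No call over all genes remained by limma without both arrays of number 2 (0 genes, with 1582 at an unadjusted p under 0.05). Called Hippo kinases and targets numbered 3 as reported and 0 to 4 with arrays left out, the other YAP-TAZ targets 5 as reported and 0 to 6, and the other pathway genes 3 as reported, 0 to 5 with arrays left out, 5 with array weights and 5 with the replicate number as a block. Fewer samples enter each fit that leaves arrays out.

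The sample numbers were not taken to pair the cultures. The labels do not say that a number marks a line. The titles share a leading 1 across media for number 1 and a leading 3 for the arrays numbered 2 here, and give none for those numbered 3. After subtracting group means, arrays sharing a number correlated across genes at 0.318, -0.0139 and 0.323 for numbers 1, 2 and 3, and other pairs at -0.366 to 0.156. With the replicate number as a block, 1252 genes, 4 of the 8 Hippo kinases and targets and 5 other targets were called, the fourth being Ankrd1.

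Centring each array on its median moved the median of all differences to 0.129 and the calls over all genes to 409 lower and 560 higher, from 474 lower and 395 higher. F3, Lats2 and Amotl2 kept their calls under it, at -2.51, -1.76 and -0.77. Among the named genes, those whose sign turned had not passed. They were Nuak2 (0.0911 without BEGM array 3 and 0.000433 without EpiX array 1), Strn3 (-0.00947 with array weights and -0.0494 without EpiX array 3) and, with median centring, Ppp2r1a (0.0205), Asap1 (0.0155), Tead3 (0.111) and Myh11 (0.0324). With arrays left out the differences ran from -0.333 to 0.0911 for Nuak2, up to 0.327 for Strn3, from -0.132 to 0.127 for Tead3, from -0.236 to 0.0425 for Asap1, from -0.198 to 0.0661 for Myh11, from -0.490 to 0.0321 for Fjx1 and from -0.0206 to 0.348 for Nt5e. The cause was not tested. Over the 8 genes and 17 settings, 119 values kept sign and side of the threshold, 12 lost the call, 3 gained it and 2 turned sign.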

Other observations

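Mitosis genes, whose products carry out chromosome segregation, moved the other way from F3, Lats2 and Amotl2. Of 11 measured, 7 rose in EpiX, 0 fell and 4 did not pass by limma, against 2.63% of all genes called higher, and their mean level was 12.39 to 12.76 on the EpiX arrays and 11.54 to 11.70 on the BEGM arrays. Ccnb2, a mitotic cyclin, was at 13.18, 13.09 and 13.07 in EpiX and 11.93, 11.62 and 11.88 in BEGM (difference 1.30 ± 0.14, SE; limma adjusted p = 0.00711). Cenpf, a kinetochore protein, Nusap1, a spindle protein, and Kif11, a spindle motor, rose by 1.53, 1.34 and 1.13. By limma, 2, 0 and 3 of them rose when EpiX array 1, 2 or 3 was left out, and 6, 1 and 5 when the BEGM array of that number was. Leaving out both arrays of a number gave 5, 0 and 3. No relation between these genes and the Hippo kinases was tested.

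The basal markers Krt15, Bcam and Tp63 rose by 4.12, 3.11 and 2.15, and 0 of 6 fell. Krt15 lost its call without BEGM array 2 (adjusted p = 0.0950), EpiX array 1 (0.0776) or EpiX array 2 (0.113), and all 3 lost it without both arrays of number 2 (0.145 to 0.364). Of 4 measured secretory markers 1 rose, Cyp2f4 (by 1.74 ± 0.30, SE, limma adjusted p = 0.0240), against 2.63% of all genes called higher. That call was lost without any 1 array other than BEGM array 1 (adjusted p = 0.0567 to 0.107). The 4 secretory differences ran from -0.85 to 2.085, and 2 of them were negative. The mean level of the secretory list overlapped between the media, at 7.47 to 9.39 in EpiX and 6.73 to 8.42 in BEGM. Of 5 ciliated markers 0 were called by limma, against 5.78% of all genes. Their largest differences were those of Tppp3 (1.16, adjusted p = 0.0833) and Tekt2 (-0.53, adjusted p = 0.159).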
